A study of Mus musculus with 8 samples.

Results

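Glo1 and the 3 genes that lie beside it on mouse chromosome 17, Btbd9, Dnah8 and Glp1r, were followed in brain RNA as a group of 4 genes, out of 19938 genes with a symbol of their own on the array. The study set mice without tumour necrosis factor (TNF), an inflammatory cytokine, against wild-type mice. Brains were lysed from adult males, 2 to 4 months old, 4 labelled TNF-/- and 4 labelled TNF+/+, and RNA of each went on 1 Affymetrix Mouse Gene 1.0 ST array. The labels call the wild-type mice C57BL/6 and give no strain for the TNF-/- mice, nor the allele or its flanking DNA. No agent was given to either group. Glo1 was chosen because its signal differed between these groups, so the values of Glo1 are a description with no test. Its neighbours were chosen for their position, with earlier results of these data known, which limits what their p-values can show. Every probe set that the platform annotation pairs with the 4 symbols was used, which gave 5 of the array's 35556 probe sets: 1 each for Btbd9, Dnah8 and Glp1r and 2 for Glo1.

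Glyoxalase 1, the product of Glo1, works with glutathione to clear methylglyoxal, a reactive by-product of glycolysis. The second enzyme of that path, encoded by Hagh, then releases D-lactate. In mice Glo1 is also known as a gene whose copy number differs between laboratory strains: some carry a duplicated stretch of chromosome 17 that holds Glo1 and extends into or across Btbd9, Dnah8 and Glp1r, and higher brain Glo1 goes with it, whereas the C57BL/6J reference carries the stretch without the duplication. Btbd9 encodes a BTB domain protein linked in humans to restless legs syndrome. Dnah8 encodes a heavy chain of axonemal dynein, the motor of sperm tails and motile cilia, and Glp1r the receptor for glucagon-like peptide 1, found on hypothalamic and hindbrain neurons. DNA copy number was not measured here, and RNA signal is what follows.

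The 4 genes are next to each other among measured genes, in the order Btbd9, Glo1, Dnah8, Glp1r. RefSeq lists 10 genes over this stretch in GRCm38.p6, of which the array measured these 4 under a symbol of their own. Promoters are shown for the 3 members that RefSeq's promoter table holds, from 250 bases before the start to 50 bases after it, to show the sequence at which each gene starts. Glo1 is read from the minus strand and Dnah8 and Glp1r from the plus strand, so Glo1 and Dnah8 are read away from each other. Capitals mark matches to a GC box (GGGCGG) or a CCAAT box (CCAAT) on either strand.
Glo1, GRCm38.p6 chr17:30612610-30612909, minus strand: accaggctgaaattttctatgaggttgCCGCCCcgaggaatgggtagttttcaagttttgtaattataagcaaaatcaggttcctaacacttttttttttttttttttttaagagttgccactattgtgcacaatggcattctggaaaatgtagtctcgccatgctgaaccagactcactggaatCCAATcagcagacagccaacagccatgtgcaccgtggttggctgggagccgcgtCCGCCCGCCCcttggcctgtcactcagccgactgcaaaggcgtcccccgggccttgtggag
Dnah8, GRCm38.p6 chr17:30626686-30626985, plus strand: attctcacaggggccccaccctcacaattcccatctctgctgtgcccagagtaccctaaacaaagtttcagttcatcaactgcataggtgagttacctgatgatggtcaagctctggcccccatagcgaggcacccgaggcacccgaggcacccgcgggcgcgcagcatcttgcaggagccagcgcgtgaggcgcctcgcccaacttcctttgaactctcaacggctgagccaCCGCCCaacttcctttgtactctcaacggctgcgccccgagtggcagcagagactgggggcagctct
Glp1r, GRCm38.p6 chr17:30901617-30901916, plus strand: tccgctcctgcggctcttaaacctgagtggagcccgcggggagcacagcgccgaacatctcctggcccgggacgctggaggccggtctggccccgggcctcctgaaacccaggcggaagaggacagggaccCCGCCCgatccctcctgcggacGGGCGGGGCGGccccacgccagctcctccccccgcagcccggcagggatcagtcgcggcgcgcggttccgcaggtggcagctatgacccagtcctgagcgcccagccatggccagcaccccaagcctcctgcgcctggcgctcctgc

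The 3 promoters differed in base composition. GC content was 49.7% for Glo1, 60.3% for Dnah8 and 73.7% for Glp1r, against a median of 52.7% over 32851 promoters of the same length, and CpG counts were 11, 16 and 29 against a median of 7. Glo1 had 3 GC box matches, of which 2 overlap just before the start, and the only CCAAT match of the 3, on the gene's own strand. Dnah8 had 1 GC box match and Glp1r 3, of which 2 overlap. A GC box match was present in 35.7% of all promoters and a CCAAT match in 37.4%. None of the 3 held the TATA box TATAAA (13.6% of promoters) or the antioxidant response element core TGACNNNGC (12.4%) on either strand. These are matches of letters in a window of the reference strain.

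Values below are the authors' log2 signal, and a positive difference means more signal under the label TNF-/-. Over all probe sets limma, a linear model with moderated variances, called 29 (0.0816%) at a Benjamini-Hochberg adjusted p under 0.05, and over genes 0.0502%, or 0.0351% counting rises only. Array medians lay between 5.03 and 5.11, and precision is limited by having 4 arrays in a group. The tissue matched its label by marker genes: all 9 neuronal and all 8 astrocyte markers lay above the median probe set, against 0 of 8 testis markers. Tnf itself went against the labels, at 5.67, 5.87, 5.92 and 6.21 in the arrays labelled TNF-/- and 4.48, 4.93, 4.24 and 4.47 in those labelled TNF+/+ (limma, adjusted p = 0.0278). That call was lost when any single array other than TNF+/+ array 2 was left out (adjusted p up to 0.114), while the groups of Tnf stayed apart by 0.74. The allele is not given, and where the probes of Tnf lie relative to any altered part of the gene was not analysed here. All directions are therefore those of arrays as labelled.

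Glo1 signal was 9.83, 9.86, 9.97 and 10.02 in the arrays labelled TNF-/- and 8.59, 8.84, 8.88 and 9.16 in those labelled TNF+/+. The groups did not overlap, and the lowest TNF-/- array stood 0.68 above the highest TNF+/+ array. The means were 9.92 ± 0.09 (SD, n = 4) and 8.87 ± 0.23 (SD, n = 4). The difference was 1.05 ± 0.11 (SE), with a 95% interval from 0.80 to 1.31, or 2.08-fold (1.74 to 2.48). A 2-fold difference, which is 1 on the log2 scale, lay inside that interval. Because Glo1 was chosen for its difference in these same arrays, its difference and interval may lie too high. A match to a 2-fold difference was not tested. By size of rise Glo1 was number 7 of the 19938 genes, and on chromosome 17 number 2 of 936, after Tnf.

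The second probe set paired with Glo1 gave nearly the same values, 9.76, 9.85, 9.94 and 9.92 in TNF-/- arrays against 8.52, 8.86, 8.92 and 9.13 in TNF+/+ arrays. Its difference was 1.01 ± 0.12 (SE), with an interval from 0.74 to 1.28, and on each array it stood within 0.101 of the first. It may not be a separate measurement of the gene on chromosome 17. Probe set numbers on this array mostly follow the genome, with 94.3% of successive named probe sets on the same chromosome. Of the 20 probe sets numbered around the first Glo1 set, 14 had a gene of known chromosome, all on chromosome 17. Around the second, 12 had one, all on chromosome 2, and its nearest named sets were those of Gsn and Dab2ip. RefSeq places a Glo1 pseudogene, Glo1-ps, on chromosome 2 between those 2 genes. Whether the second set reports Glo1, the pseudogene or both cannot be told apart with these values.

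Btbd9, the neighbour on one side, was higher in the arrays labelled TNF-/- by a smaller amount than Glo1, 48.9% of its log2 difference. Its signal was 8.75, 8.74, 8.60 and 8.47 in the arrays labelled TNF-/- and 8.29, 8.18, 7.93 and 8.09 in those labelled TNF+/+. The groups did not overlap, with a gap of 0.17 between the nearest arrays. The means were 8.64 ± 0.14 and 8.12 ± 0.15 (SD, n = 4 each). The difference was 0.51 ± 0.10 (SE), or 1.43-fold (95% interval 1.23 to 1.66). On the log2 scale the interval ran from 0.30 to 0.73, which leaves out both 0 and the 1 of a 2-fold difference. Adjusted over all probe sets Btbd9 did not pass (limma, adjusted p = 0.151). It did when only the probe sets with 1 gene symbol were tested (limma, adjusted p = 0.0495), and its exact two-sided permutation p, unadjusted, was 0.0286, the smallest that 4 against 4 can give.

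Glp1r, on the other side of Glo1 and beyond Dnah8, was also higher, by 34.4% of the log2 difference of Glo1. Its signal was 5.09, 5.07, 5.18 and 5.35 in the arrays labelled TNF-/- and 4.66, 4.78, 4.89 and 4.91 in those labelled TNF+/+. The groups did not overlap, with a gap of 0.16. The means were 5.17 ± 0.13 and 4.81 ± 0.12 (SD, n = 4 each). The difference was 0.36 ± 0.08 (SE), or 1.29-fold (95% interval 1.12 to 1.47). On the log2 scale the interval ran from 0.17 to 0.55, again clear of 0 and of 1, but the gene did not pass over all probe sets (limma, adjusted p = 0.247; exact two-sided permutation p = 0.0286, unadjusted). Its mean signal lay at the 48.8th percentile of all probe sets.

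Dnah8, between Glo1 and Glp1r, showed no such gap. Its signal was 3.71, 3.84, 3.65 and 3.71 in the arrays labelled TNF-/- and 3.67, 3.68, 3.65 and 3.64 in those labelled TNF+/+, so the groups overlapped. The difference was 0.07 ± 0.06 (SE), with an interval from -0.06 to 0.19 (limma, adjusted p = 0.689; exact two-sided permutation p = 0.114). The mean signal lay at the 9.93rd percentile of all probe sets, and the 8 values spanned only 3.64 to 3.84. At so low a signal the array may not show a difference in transcript, and whether Dnah8 RNA is present in these lysates cannot be read from it.

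**Figure D1:**
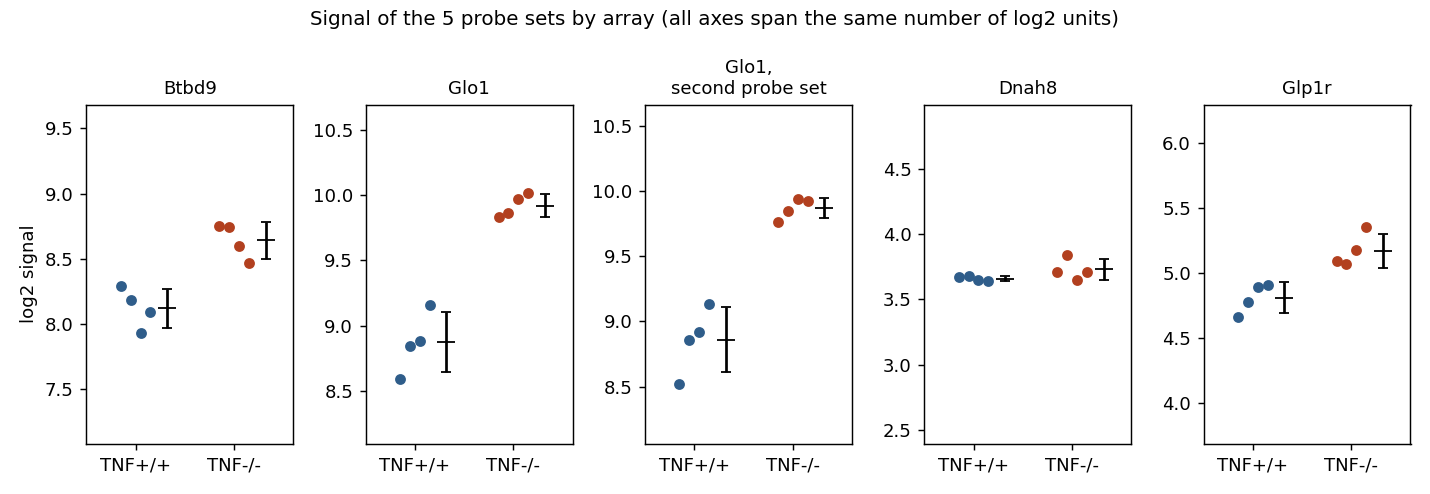
Log2 signal of the 5 probe sets on each array (points; blue TNF+/+, red TNF-/-), with the mean and SD of the 4 arrays of a group beside them (black). Each axis spans the same number of log2 units around its own centre. Both Glo1 sets, Btbd9 and Glp1r have all TNF-/- points above all TNF+/+ points, with differences of 1.05, 1.01, 0.51 and 0.36, and Dnah8 lies flat at 3.64 to 3.84.

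All TNF-/- arrays lay above all TNF+/+ arrays for 3 of the 4 genes. Over all 19938 genes this held for 4.16%. Glo1 was chosen from this contrast, so the count of 3 is a description. The 3 rises were unequal: that of Glo1 exceeded that of Btbd9 by 0.54 and that of Glp1r by 0.69. Among all genes Btbd9 was number 48 and Glp1r number 229 by size of rise, and on chromosome 17 they were number 7 and number 15 of 936. Signals of different probe sets respond to RNA with different slopes, so unequal differences on an array are not a measure of unequal copy number. Within a group Glp1r ranked the arrays much as Glo1 did and Btbd9 did not. Glo1 and Glp1r had the same order over the 4 TNF+/+ arrays, lowest in array 1 (8.59 and 4.66) and highest in array 4 (9.16 and 4.91), and both were highest in array 4 of those labelled TNF-/- (10.02 and 5.35), where only the lowest pair of arrays changed places. Btbd9 was lowest in that array (8.47), and among TNF+/+ arrays it was highest in array 1 (8.29), where Glo1 was lowest. A like order was not particular to Glp1r. Tnf had the order of Glo1 over the TNF-/- arrays, though not over the TNF+/+ arrays. Fn3krp on chromosome 11, singled out after its values were seen, also had it over the TNF-/- arrays (8.11, 8.23, 8.47 and 8.53). Among TNF+/+ arrays (8.22, 8.15, 8.37 and 8.60) only its lowest pair changed places. The relation between members within groups was not tested.

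The nearest measured genes with a symbol of their own, 5 on each side, differed by between -0.07 and 0.09. On the side of Btbd9, the nearest measured gene, Zfand3, which encodes a zinc finger protein, differed by 0.05 ± 0.08 (SE), with an interval from -0.13 to 0.24. Next came Mdga1, a gene of a cell surface protein at synapses, at 0.06 ± 0.07, Ccdc167 at 0.07 ± 0.07, Tbc1d22b at -0.02 ± 0.09 and Tmem217 at -0.07 ± 0.07. On the side of Glp1r, Umodl1 differed by 0.09 ± 0.09 with a low signal, and Abcg1, a cholesterol exporter gene with a signal of 8.14 in both groups, had an interval from -0.16 to 0.15. The trefoil factor genes Tff3, Tff2 and Tff1 followed at 0.05, -0.07 and -0.07, all with low signals of 3.53 to 3.95. Groups overlapped for all 10 of these genes (limma, adjusted p from 0.664 to 0.991). Groups failed to overlap for only 7.66% of all genes, so overlap in all 10 says little about these genes. Probe sets with several symbols were not counted here. The one numbered directly before that of Zfand3, singled out after its values were seen, was at 0.20 ± 0.06 (SE), with means of 8.64 and 8.44 and groups that did not overlap (limma, adjusted p = 0.313).

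Over 25 measured genes on each side, limma called 0 of 50, against 0.0502% of all genes. An unadjusted p under 0.05 was found for 4 (8%), 2 higher and 2 lower, against 11.7% of all genes (7.37% higher). SAM, the permutation method named in the study's design, also called 0, against 0.149% of all probe sets. At shares so low, 0 of 50 says little about these genes. With 50 genes on each side limma again called 0, but 16 of 100 (16%) had an unadjusted p under 0.05, 9 higher and 7 lower, which is above the share over all genes, and over the 932 genes of chromosome 17 other than the members it was 14.5%. The share around the members thus depended on the width of the window. The median difference of the nearest 50 genes was -0.01, the same as over all genes, and 35 of them lay within 0.1 of 0. None reached the difference of Glp1r, and the upper bound of the interval was under 1 for all 50, with 0.57 as the highest. Only 27 of the 50 had a mean signal at or above that of the median probe set. These 27 differed by between -0.33 and 0.32, with a median of 0.02. For dimmer genes, as for Dnah8, the array may not show a difference in transcript, so a small difference there says little. Of the 50 genes, those with the smallest p were Cbs, Pim1 and Rrp1b. Cbs, which encodes cystathionine beta-synthase, an enzyme of sulfur amino acid metabolism, was at -0.33 ± 0.07 (SE). Pim1, a kinase gene, was at 0.22 ± 0.07, and Rrp1b, a gene of ribosome biogenesis, at 0.32 ± 0.11 (limma, adjusted p = 0.212, 0.361 and 0.366). All 3 had groups that did not overlap, as did 7.66% of all genes.

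**Figure D2:**
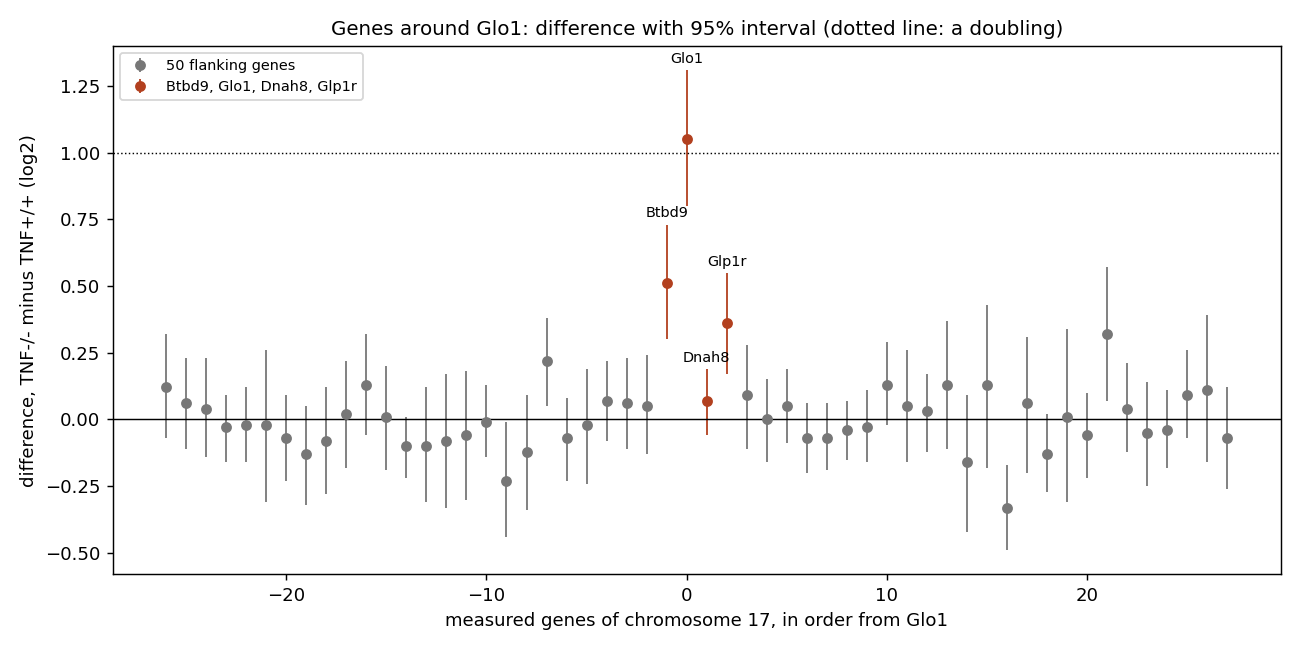
Difference in log2 signal (TNF-/- minus TNF+/+, vertical axis, points with 95% intervals of the limma fit) for the 4 genes (red) and 25 measured genes on each side (grey), by their order from Glo1 on chromosome 17, with a dotted line at a 2-fold difference (1). Glo1 reaches 1.05, Btbd9 0.51 and Glp1r 0.36, while the grey points run from -0.33 to 0.32.

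An unnamed probe set may belong to the same stretch. The set numbered directly after the first Glo1 set is not listed in the platform annotation and has a low signal, with means of 3.86 under TNF-/- and 3.69 under TNF+/+. It differed by 0.17 ± 0.06 (SE), with groups that did not overlap (limma, adjusted p = 0.396). The set numbered directly before that of Dnah8, also not listed, differed by -0.14 ± 0.05 with groups that did not overlap in the opposite direction (limma, adjusted p = 0.381). Groups did not overlap for 6.63% of all probe sets. Neither of these can be placed on a gene, and both were singled out after their values were seen.

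Glo1 lies on the same chromosome as the targeted gene, 150 measured genes away. Of the 147 genes between them other than the members, limma called 0, against 0.0502% of all genes. SAM also called 0 of them, against 0.149% of all probe sets. At shares so low, 0 of 147 says little about these genes. An unadjusted p under 0.05 was found for 13 (8.84%), 5 higher and 8 lower, against 11.7% of all genes. The median difference of the 147 was -0.04, with 49 higher and 98 lower, and their range was from -0.33 to 0.46. Over all genes the median was -0.01, with 9532 higher and 10406 lower. Beside Cbs, the smallest p were those of Vars, a valyl-tRNA synthetase gene, at -0.24 ± 0.06 (SE), and Psmb9, an immunoproteasome subunit gene, at -0.24 ± 0.06 (limma, adjusted p = 0.269 and 0.283). The highest difference, 0.46 ± 0.15, was that of Zfp81, a zinc finger gene singled out after its values were seen. It exceeded the 0.36 of Glp1r, with groups that did not overlap (limma, adjusted p = 0.361).

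**Figure D3:**
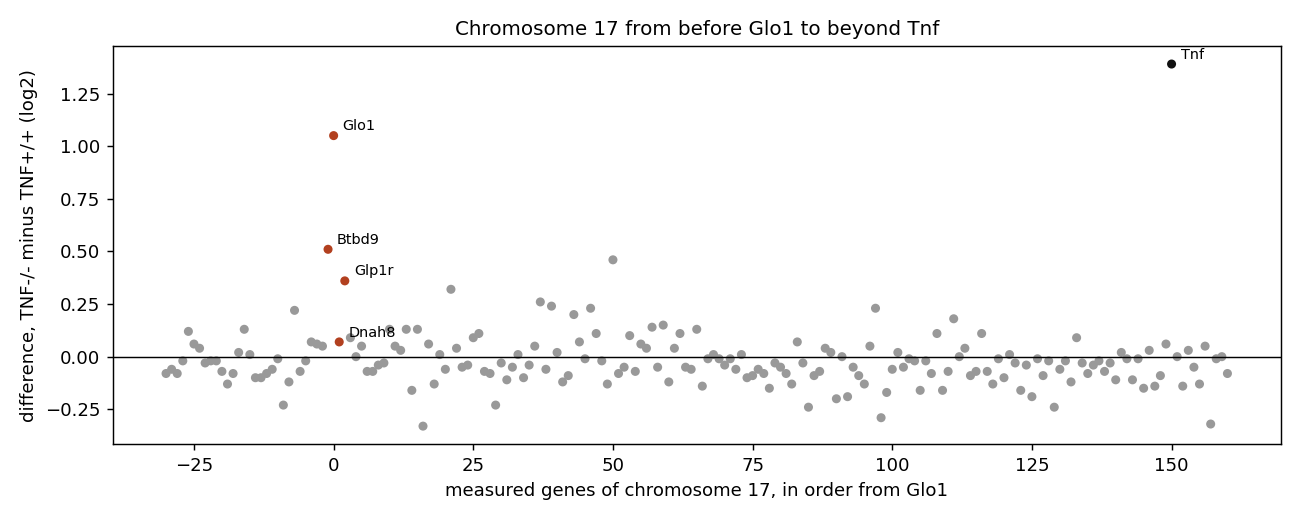
Difference in log2 signal (TNF-/- minus TNF+/+) for measured genes of chromosome 17, by their order from Glo1, from 30 genes before it to 10 beyond Tnf. Red points are Btbd9, Glo1, Dnah8 and Glp1r, the black point is Tnf at 1.39, and the 147 grey points between Glo1 and Tnf run from -0.33 to 0.46.

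The other genes that make, clear or sense methylglyoxal were compared next, with a list of 35 genes of which 33 were measured under a symbol of their own. Without Glo1, limma and SAM each called 0 of 32. Over the whole array limma called 0.0502% of genes and SAM 0.149% of probe sets, so 0 of 32 says little. Of the 32, 3 (9.38%) had an unadjusted p under 0.05, 2 higher and 1 lower, against 11.7% of all genes. The median difference of the 32 was -0.04, with 9 higher and 23 lower. Over all genes it was -0.01, with 9532 higher and 10406 lower. Without TNF+/+ arrays 3 and 4 the median of the 32 was 0.03. Hagh, the second enzyme of the glyoxalase path and also a gene of chromosome 17, did not follow Glo1: its signal was 9.67, 9.72, 9.85 and 9.84 in TNF-/- arrays against 9.73, 9.72, 9.99 and 10.30 in TNF+/+ arrays, a difference of -0.16 with an interval from -0.45 to 0.13 (limma, adjusted p = 0.666). Ldhd, which encodes the D-lactate dehydrogenase, was at -0.09 ± 0.13 (SE). Park7, which encodes DJ-1, a protein that also acts on methylglyoxal, was at 0.02 ± 0.07.

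Glycolytic, glutathione and receptor genes of the list followed. The signal of Tpi1, whose triose phosphate substrates give rise to methylglyoxal, was 11.21 in both groups, with an interval from -0.23 to 0.23. For glutathione, the cofactor of glyoxalase 1, the synthesis genes Gclc and Gclm were at 0.10 ± 0.07 (SE) and -0.04 ± 0.06. Ager, the gene of the receptor for advanced glycation end products, was at -0.05 ± 0.07 with a signal at the 26th percentile. The smallest p values were those of Esd, an S-formylglutathione hydrolase gene, at -0.41 ± 0.12, Aldh3a2, a fatty aldehyde dehydrogenase gene, at 0.27 ± 0.09, and Gss, the glutathione synthetase gene, at 0.19 ± 0.08 (limma, adjusted p = 0.333, 0.349 and 0.431). Akr1b3 and Gapdh of the list had no probe set of their own symbol.

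**Figure D4:**
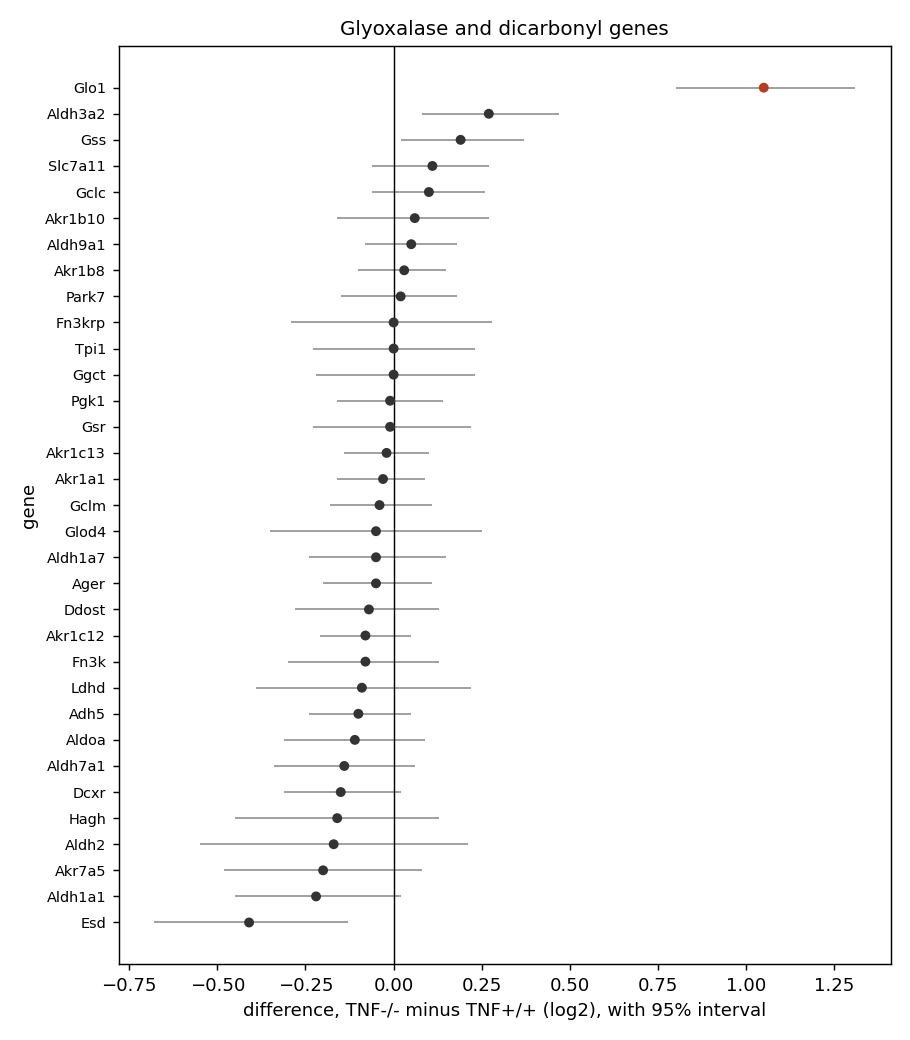
Difference in log2 signal (TNF-/- minus TNF+/+, horizontal axis, points with 95% intervals of the limma fit) for the 33 measured genes of the glyoxalase and dicarbonyl list, sorted by difference. Glo1 (red) stands at 1.05, and the other 32 run from -0.41 (Esd) to 0.27 (Aldh3a2).

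The genes whose profile over the 8 arrays was most like that of Glo1 were not on chromosome 17. Likeness was measured as the root mean square difference between profiles centred on their own mean, over 19937 genes. The nearest were 1700048O20Rik on chromosome 9 (0.16), Abhd1 on chromosome 5 (0.17), Catspere2 on chromosome 1 (0.18), Rgcc on chromosome 14 (0.21) and Lpl on chromosome 8 (0.22). They rose by 1.20, 0.98, 1.14, 0.85 and 1.14, of which the first 2 did not pass (limma, adjusted p = 0.0502, 0.0818, 0.0119, 0.0473 and 0.0151). The measure picks genes with a difference of like size and low spread. On it Tnf was number 19 (0.30), Glp1r number 72 (0.36), Btbd9 number 104 (0.37) and Dnah8 number 5536 (0.52).

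**Figure D5:**
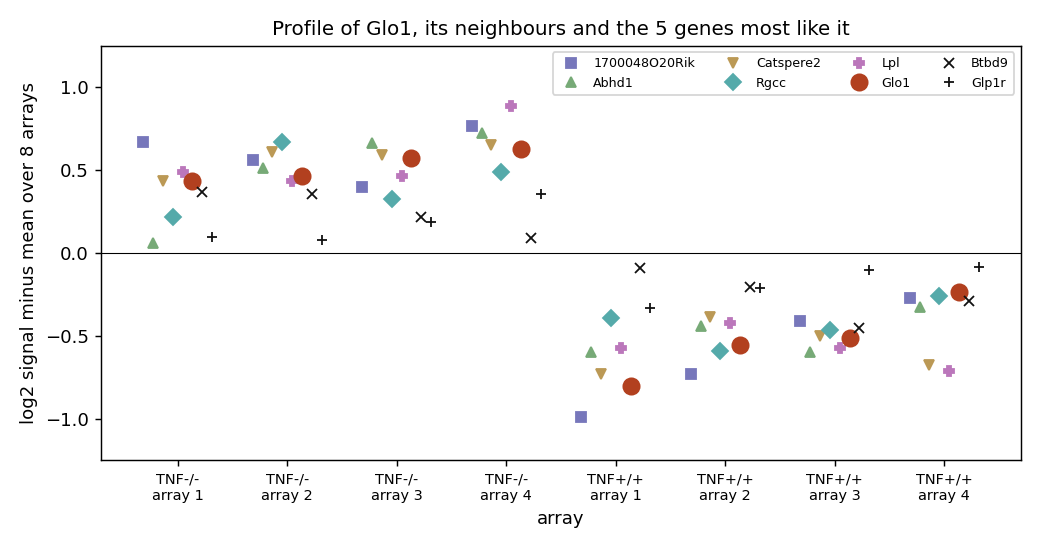
Log2 signal minus the gene's own mean over the 8 arrays, for each array, of Glo1 (large red circles), Btbd9 and Glp1r (black crosses and plus signs) and the 5 genes most like Glo1 (coloured symbols). All are above 0 in the 4 TNF-/- arrays and below 0 in the 4 TNF+/+ arrays, and the rises of Btbd9 and Glp1r, 0.51 and 0.36, are smaller than the 1.05 of Glo1.

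Markers of cell types and regions were set beside these values, since fewer cells of a type and less RNA per cell cannot be told apart in whole lysates. The mean log2 signal of the 9 neuronal markers ran from 10.58 to 10.61 under the label TNF-/- and from 10.52 to 10.62 under TNF+/+, and that of the 8 astrocyte markers from 9.60 to 9.82 and from 9.65 to 9.76. For 7 hypothalamic markers, a region where Glp1r is known, the ranges were 5.54 to 5.88 and 5.29 to 5.87. These 3 overlapped between groups, as did microglial, endothelial, choroid plexus and liver markers. The 10 motile cilia markers, none of them above the median probe set, did not overlap, at 4.53 to 4.61 and 4.40 to 4.50. Neither did the 6 oligodendrocyte markers, at 9.49 to 9.60 and 9.61 to 9.94. The 8 testis markers, all dim, did not overlap either, at 3.74 to 3.75 and 3.78 to 3.86. The mean of the oligodendrocyte markers differed by -0.27. Of these markers 3 of 6 had an unadjusted p under 0.05 (limma), against 11.7% of all genes. So had 2 of 9 neuronal and 2 of 8 astrocyte markers. TNF+/+ array 1, with the lowest Glo1 signal, had a mean of 7.56 over 10 cerebellar markers, against 6.22 to 6.32 in the other 7 arrays. Without that array the difference was 0.96 for Glo1, 0.57 for Btbd9 and 0.31 for Glp1r. The part of cell composition in these differences was not tested.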

How the data were processed

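RNA of 8 whole brain lysates, 4 labelled TNF-/- and 4 labelled TNF+/+, was measured on Affymetrix Mouse Gene 1.0 ST arrays. The deposited values are the authors' log2 signal per probe set, a scale that follows from the values (2.83 to 14.1). GCOS, GCRMA and Partek are listed, per the submitters' processing notes, with no version or role (genome build: not given in the sources used here). Titles gave each array its group and number, and beyond that say only that each is a biological replicate.

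Values were used without further normalization or filter. The platform annotation pairs 21789 probe sets with 1 symbol, 1621 with several and does not list 12146. Of the first, 21698 matched RefSeq (GRCm38.p6) by gene ID, which gave chromosomes and gene order. A gene is represented by its probe set of highest mean (999 genes have several). limma 3.58.1 in R 4.3.3 compared the groups over all 35556 probe sets (lmFit, then eBayes with a prior df of 2.52; two-sided p, adjusted by Benjamini-Hochberg); SE and 95% intervals are from that fit. SAM was rebuilt from the design text with 70 assignments, s0 of 0.0357 and an estimated false discovery rate of 4.49%. On simulated arrays with 35556 independent probe sets, limma recovered 52% of those given a log2 change of 0.5 and 87% at a change of 1, with 8.55% of its calls false. SAM recovered 43% and 88%, with 6.43% false. These shares depend on the number of probe sets changed in the simulation and on its independent noise. Neither is known to match the real arrays, so the shares are no measure of recovery there.

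The named genes were Glo1, Btbd9, Dnah8, Glp1r and Tnf, the nearest 5 on each side, those that passed or else the 3 with the smallest p of the flanking genes, of the genes between Glo1 and Tnf and of the glyoxalase list, 8 further genes of that list of which Akr1b3 was not measured, and the 5 most like Glo1. Members, lists and this rule were chosen with earlier results of these data known. Promoters are RefSeq's. Same-numbered arrays were checked for pairing: their deviations from the group means correlated by 0.067 to 0.112. Other pairs ran from -0.116 to 0.101, and 6 of 8 arrays correlated best with their own number. The correlations were low and no label states a pairing, so the main fit did not pair arrays. A weak pairing was not excluded, and with the replicate block 0 probe sets were called in place of 29. Alternatives were other scalings, filters, variance models and weights, SAM, the replicate block, gene means over probe sets, and leaving out arrays. Plots used matplotlib 3.10.9 in Python 3.11.15.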

Additional observations from a re-analysis of the deposited data

Results flagged for a closer look

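Of 72 groups of 4 values checked, 5 held 1 value far from the remaining 3, where chance gives about 4 (1 in 20). None was a value of Glo1, Btbd9, Dnah8, Glp1r or Tnf. All 5 were in arrays labelled TNF-/-: Umodl1 in array 3 (3.86), Cbs in array 1 (6.41), Park7 in array 2 (10.67), Ldhd in array 2 (5.90) and Lpl in array 4 (6.50).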

How the results depend on the processing

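Glo1, both probe sets, Btbd9, Glp1r and Dnah8 stayed higher in the arrays labelled TNF-/- under every alternative run. With 1 array left out in turn the differences ran from 0.96 to 1.15 for Glo1, 0.90 to 1.10 for its second probe set, 0.45 to 0.57 for Btbd9, 0.30 to 0.40 for Glp1r, 0.03 to 0.09 for Dnah8 and 1.29 to 1.52 for Tnf. Adjusted p stayed over 0.05 for Btbd9 (0.176 to 0.363), Glp1r (0.238 to 0.492) and Dnah8 (0.653 to 0.895), and for Tnf it ran from 0.0321 to 0.114 and was under 0.05 only without TNF+/+ array 2 (limma). Btbd9 (0.51) passed when only probe sets with 1 symbol were tested. There the whole fit was rerun on fewer probe sets, and the cause of the lower adjusted p was not tested. By the exact permutation test, unadjusted, Btbd9 (0.51) and Glp1r (0.36) were under 0.05 (p = 0.0286). With 4 against 4 that p means only that the groups did not overlap, which held for 7.66% of all genes. Tnf did not pass with the replicate block (1.39; limma, adjusted p = 0.129) or without TNF+/+ arrays 3 and 4 (1.21; 0.216). The block changed no call of a neighbour of Glo1; 6 of 8 arrays correlated best with their own number. Counts of called probe sets moved from 29 to 63 with 1-symbol probe sets, 53 by SAM, 0 with the replicate block, 0 without TNF+/+ arrays 3 and 4 and 1 to 20 with 1 array left out (1 without TNF+/+ array 3); the cause was not tested. No flanking gene, gene between Glo1 and Tnf or other glyoxalase gene was called under any of these, nor with 10 or 50 genes on each side, where 2 of 20 and 16 of 100 had an unadjusted p under 0.05 (4 of 50 with 25). Of the 5 genes most like Glo1, 3 to 4 were shared with 1 array left out. Leaving out dim probe sets removed Dnah8 and Glp1r from the test. Low signal limits what Dnah8 can show.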
